A study of Mus musculus with 12 samples.

Results

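The T cell receptor (TCR) γ and δ segments were followed across 11 libraries of sorted mouse thymocytes. The group was defined by gene symbol as 8 of the 11815 rows of the table: the γ constant segments Tcrg-C1, Tcrg-C2 and Tcrg-C4, the γ variable segments Tcrg-V1 and Tcrg-V4, and the δ variable segments Trdv1, Trdv2-2 and Trdv5. The choice went by name, with earlier results of these data known. Trgv2 and Trdv2-1, a γ and a δ variable segment that also have rows, are no members.

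The libraries came from mice aged 4 to 5 weeks, each from a pool of 2 to 3 animals, on a C57BL/6 or C57BL/6 by 129 hybrid background. Id3KO γδ (2 libraries, germline loss of Id3) and WT γδ (2 libraries) were sorted as TCRγδ+ CD3+. L-DKO iNKT (2 libraries) and WT iNKT (1 library) were sorted as CD1dTet+ TCRβ+, that is, invariant natural killer T cells stained by a CD1d tetramer. L-DKO DP (2 libraries) and WT DP (2 libraries) were CD4+ CD8+ double-positive thymocytes. L-DKO stands for Id2 f/f Id3 f/f LckCre+, in which a Cre driven by the Lck promoter deletes both genes in T lineage cells. In the sample labels the WT DP gate was TCRγδ- and the L-DKO DP gate was CD1dTet-, whereas the study's methods give TCRγδ- for DP cells in general, so whether γδ cells were gated out of the L-DKO DP libraries is not settled by the sources. The γδ gates select on the γδ receptor itself, so high levels of its segments there are partly set by the sort. Far fewer WT than mutant γδ, iNKT and DP cells were sorted, so cell input and genotype cannot be told apart. All WT samples are titled B6, and no source used here gives the background of each mutant group, so strain may also run with genotype and cannot be told apart from it. Within a group the libraries are named a and b in column order only, and the letters do not match libraries between groups.

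The γ chain of the γδ receptor is built by joining a variable (V) segment to a joining (J) segment, which is spliced to a constant (C) segment. In the mouse the γ locus holds several small J-C clusters, and Tcrg-V1 mostly joins the cluster of Tcrg-C4, Tcrg-V2 that of Tcrg-C2, and Tcrg-V4 that of Tcrg-C1. The δ locus lies inside the α locus and is cut out when a V segment joins a Jα segment, and several V segments named Trav/dv can serve either chain. Trdv5 lies beyond the δ constant segment in the opposite orientation and joins by inversion. Id2 and Id3 proteins hold back the E proteins, transcription factors that control receptor rearrangement, and mice lacking Id3 are known for an expanded population of γδNKT cells, innate-like γδ cells that pair Vγ1.1 (Tcrg-V1 here) with Vδ6.3 (Trav15/dv6 family).

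By the RefSeq table of assembly GRCm38.p6, the γ members lie on chromosome 13 and the δ members on chromosome 14. Tcrg-V4 spans 19184981-19185506, Tcrg-C1 19214103-19216618, Tcrg-C2 19305060-19307551, Tcrg-V1 19340016-19340454 and Tcrg-C4 19344558-19352343. Trdv1 spans 53881612-53882217, Trdv2-2 53960993-53961602 and Trdv5 54148662-54149201. RefSeq classes the variable members as V segments and the constant members as C regions. In the GENCODE annotation Tcrg-C2 and Trdv5 lie on the minus strand and the other 6 members on the plus strand.

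Because reads were paired and 50 bases long, near-identical segments can share them. No source used here says how the authors' counting divided such reads. The windows counted below stand for single reads, and the mate of a read may still tell the partners apart. The first 150 coding bases of the closest pairs, taken from GENCODE transcripts, show where a read could tell the partners apart. Capitals mark bases that differ from the aligned partner or have none there. The γ variable pair and the γ constant pair differ at few positions:
Tcrg-V1: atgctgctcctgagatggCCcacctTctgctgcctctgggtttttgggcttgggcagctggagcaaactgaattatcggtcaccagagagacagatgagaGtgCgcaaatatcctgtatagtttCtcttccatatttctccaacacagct
Tcrg-V2: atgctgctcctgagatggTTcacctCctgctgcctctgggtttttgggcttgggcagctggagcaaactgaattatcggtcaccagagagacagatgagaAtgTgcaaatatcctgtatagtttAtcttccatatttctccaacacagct
Tcrg-C1: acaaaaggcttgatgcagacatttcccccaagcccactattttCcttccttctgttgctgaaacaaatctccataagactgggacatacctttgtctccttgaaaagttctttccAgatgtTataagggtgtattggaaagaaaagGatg
Tcrg-C2: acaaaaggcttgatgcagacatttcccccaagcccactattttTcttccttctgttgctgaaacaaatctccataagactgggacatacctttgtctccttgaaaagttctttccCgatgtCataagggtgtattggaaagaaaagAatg

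Over the whole coding sequence Tcrg-V1 and Tcrg-V2, a row named Trgv2 in the table, were 95.7% identical. Of the 298 windows of 50 bases in Tcrg-V1, 31 occurred unchanged in Tcrg-V2, and 54.0% did so when up to 2 mismatches were let through. Tcrg-C1 and Tcrg-C2 were 97.4% identical, with 63 of 469 windows of Tcrg-C1 shared exactly and 76.3% shared within 2 mismatches. Levels of Tcrg-C1 and Tcrg-C2 are therefore uncertain relative to each other, as are those of Tcrg-V1 and Trgv2. Tcrg-C4 stood further off, at 77.4% identity to Tcrg-C1 with 0 windows in common. Tcrg-V4 also had 0 windows in common with Tcrg-V1, shown here by its start against that of Tcrg-V1:
Tcrg-V4: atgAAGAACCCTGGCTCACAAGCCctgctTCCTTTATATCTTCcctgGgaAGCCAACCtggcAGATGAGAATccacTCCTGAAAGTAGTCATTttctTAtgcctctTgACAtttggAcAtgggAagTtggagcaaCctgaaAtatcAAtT

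The δ members were 58.1% to 63.4% identical to each other and shared 0 windows, so no window matched more than 1 of them. Trdv2-2 had a close copy in Trdv2-1, which is no member but has a row, with 92.4% identity and 61.8% of windows shared exactly. Most of their differences lie in the first codons, which encode the signal peptide:
Trdv2-2: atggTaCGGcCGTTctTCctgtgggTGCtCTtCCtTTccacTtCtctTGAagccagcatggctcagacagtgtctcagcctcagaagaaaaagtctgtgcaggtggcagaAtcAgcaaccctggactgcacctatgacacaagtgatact
Trdv2-1: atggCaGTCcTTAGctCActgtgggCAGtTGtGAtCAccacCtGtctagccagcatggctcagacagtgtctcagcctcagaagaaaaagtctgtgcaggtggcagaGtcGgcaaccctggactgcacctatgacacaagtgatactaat

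As a check of the labels, Id3 was at 3.95 and 3.07 FPKM in Id3KO γδ, against 156.7 and 96.7 FPKM in WT γδ (FPKM, fragments scaled by transcript length and by the library's total). Id2 was listed at 0 in library a and was at 0.199 FPKM in library b of L-DKO iNKT, against 553.5 FPKM in WT iNKT. Id3, in contrast, was at 30.5 and 22.8 FPKM in L-DKO iNKT, against 42.4 FPKM in WT iNKT, a difference that did not pass the test (limma adjusted p = 0.496), so L-DKO iNKT below means the libraries that carry that label. In DP cells Id3 was at 6.16 and 3.09 FPKM in L-DKO, against 53.8 and 36.9 FPKM in WT. Sequencing depth is unknown, since the deposited values hold no counts. The share of all FPKM taken by small RNA, receptor and predicted rows was 30.2% to 61.5% per library.

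High and low γ transcripts stood far apart in the 6 groups, and the δ transcripts were divided along another line. The 5 γ members summed to 1413 and 1686 FPKM in Id3KO γδ, 1094 and 1867 FPKM in WT γδ, 7.61 and 35.3 FPKM in L-DKO iNKT and 729.9 FPKM in WT iNKT. In DP cells the γ sum was 6.24 and 3.24 FPKM in L-DKO, against 8.99 and 2.08 FPKM in WT. The 3 δ members summed to 58.6 and 18.4 FPKM in Id3KO γδ, against 400.1 and 610.2 FPKM in WT γδ. They were listed at 0 in both L-DKO iNKT libraries, against a sum of 6.07 FPKM in WT iNKT. In DP cells the δ sum was 52.1 and 48.2 FPKM in L-DKO, against 49.0 and 57.5 FPKM in WT. So γ members were high in both γδ groups and in WT iNKT, while δ members were high in WT γδ, intermediate in both DP groups and low in both iNKT groups.

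**Figure D1:**
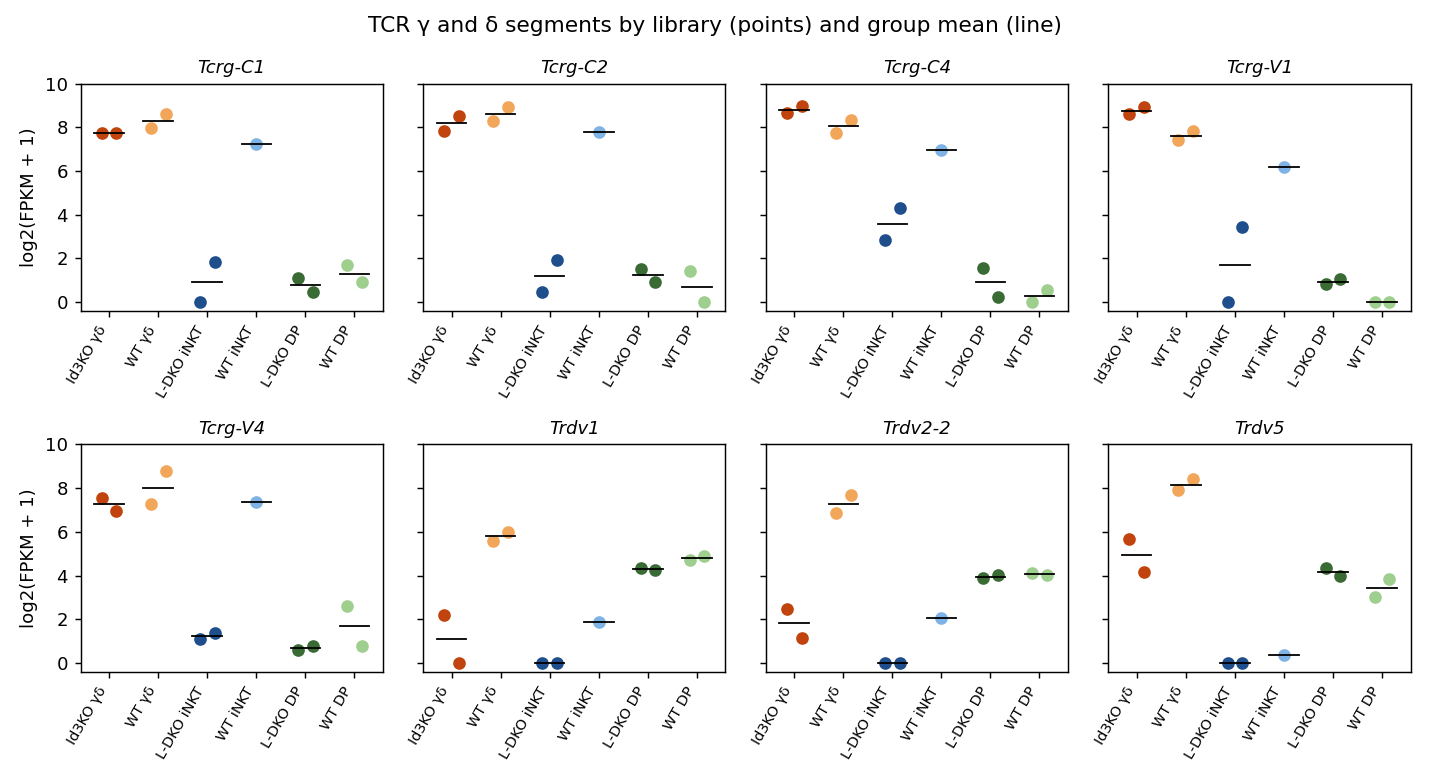
Levels of the 8 members in each library. The vertical axis is log2(FPKM + 1), points are libraries, lines are group means, and the groups run from Id3KO γδ and WT γδ through the iNKT groups to the DP groups. The γ members are high in Id3KO γδ, WT γδ and WT iNKT, while the δ members lie between 0 and 50.4 FPKM in Id3KO γδ.

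Loss of Id3 in γδ cells went with a fall of all 3 δ members and with no called change of a γ member. The question was which segments the expanded γδ population uses. Of the 8 members, 3 were called lower and 0 higher (limma on log2(FPKM + 1), Benjamini-Hochberg adjusted p under 0.05), where 8.35% of all rows were called lower and 6.8% higher. The members' median change was -0.65 on the log2 scale, beside -0.08 over all rows.

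Trdv2-2 was at 4.62 and 1.23 FPKM in Id3KO γδ, against 114.8 and 206.2 FPKM in WT γδ. Trdv1 was at 3.51 FPKM and listed at 0 in Id3KO γδ, against 47.1 and 62.5 FPKM in WT γδ. Trdv5 was at 50.4 and 17.1 FPKM in Id3KO γδ, against 238.1 and 341.5 FPKM in WT γδ. For each of the 3, which encode variable domains of the δ chain, both mutant libraries lay below both WT libraries. On the log2(FPKM + 1) scale, which understates changes of low genes, Trdv2-2 fell by 5.45 (SE 0.42, adjusted p = 0.00055 by limma). Trdv1 fell by 4.70 (SE 0.58, adjusted p = 0.0031 by limma) and Trdv5 fell by 3.23 (SE 0.48, adjusted p = 0.0064 by limma). The calls held when each of 10 libraries, all but WT iNKT, was left out in turn, with adjusted p up to 0.0350 by limma. Trdv5 was the δ member that kept the highest level in Id3KO γδ, 86.1% and 93.3% of the summed FPKM of the 3, against 59.5% and 56.0% in WT γδ. Over the 16 δ variable and Trav15 family rows described below, its share was instead lower, 4.30% and 1.58% in Id3KO γδ, against 28.2% and 26.4% in WT γδ.

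Among the γ members, the Tcrg-V1 and Tcrg-C4 cluster was the higher one in Id3KO γδ, within the error of the test. Tcrg-C4 was at 396.6 and 494.9 FPKM in Id3KO γδ, against 214.2 and 323.7 FPKM in WT γδ. Tcrg-V1, the variable segment that joins the Tcrg-C4 cluster, was at 389.1 and 482.3 FPKM in Id3KO γδ, against 168.2 and 225.5 FPKM in WT γδ. The groups did not overlap for either, and the share of all rows without overlap is not given here. Their log2 differences of 0.75 (95% interval -0.54 to 2.04) and 1.15 (95% interval -0.90 to 3.20) did not pass the test, with limma adjusted p of 0.393 and 0.411. Neither was called when only the γδ libraries were fitted. The shared spread of Tcrg-V1 took in the L-DKO iNKT libraries, listed at 0 and at 9.76 FPKM, and with either of them left out the same difference passed, at a limma adjusted p of 0.0159.

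Tcrg-V4 was at 186.8 and 123.9 FPKM in Id3KO γδ, against 152.2 and 442.6 FPKM in WT γδ. Tcrg-C1, the constant segment of its cluster, was at 212.5 and 216.4 FPKM in Id3KO γδ, against 247.2 and 389.7 FPKM in WT γδ. Tcrg-C2 was at 227.6 and 368.4 FPKM in Id3KO γδ, against 312.5 and 485.9 FPKM in WT γδ. The groups overlapped for Tcrg-V4 and Tcrg-C2 and did not for Tcrg-C1. Their log2 differences were -0.77 (95% interval -2.24 to 0.70), -0.53 (95% interval -1.85 to 0.79) and -0.43 (95% interval -1.83 to 0.98), and none passed the test.

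**Figure D2:**
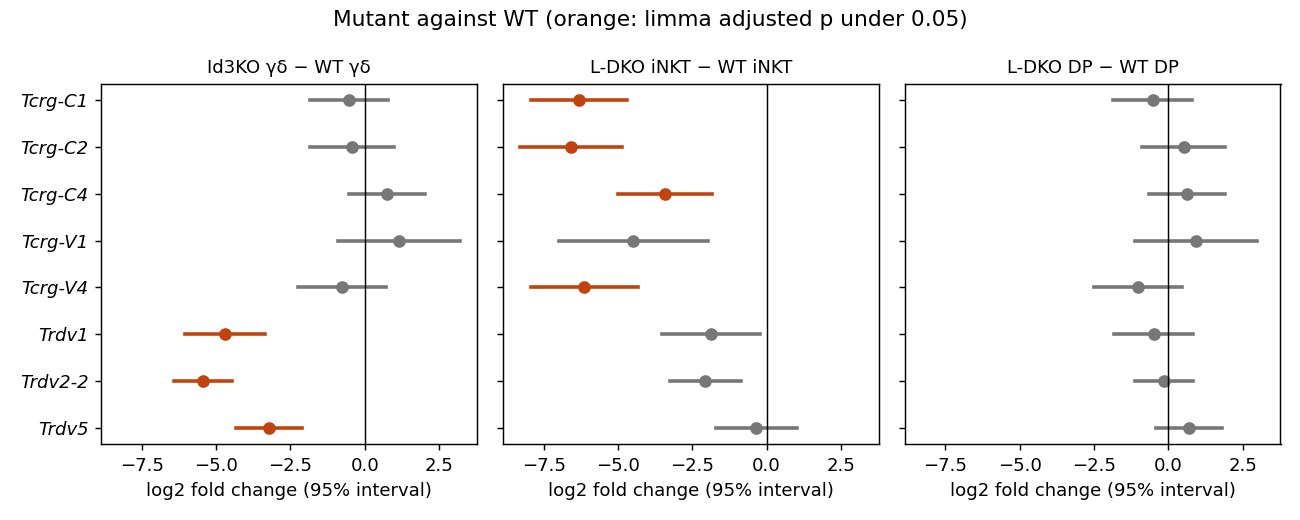
Log2 fold change of each member, mutant over WT, in γδ cells, iNKT cells and DP cells. Points are limma estimates on log2(FPKM + 1), lines their 95% intervals, and orange marks an adjusted p under 0.05. The 3 δ members fall in Id3KO γδ, 4 γ members fall in L-DKO iNKT, and no member is called in L-DKO DP.

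Within the γ chain, shares take out the overall level and show which segments made up the transcripts. Tcrg-C4 made up 47.4% and 45.8% of the summed FPKM of the 3 γ constant members in Id3KO γδ, against 27.7% and 27.0% in WT γδ. Tcrg-C1 made up 25.4% and 20.0% in Id3KO γδ, against 31.9% and 32.5% in WT γδ. Tcrg-C2 made up 27.2% and 34.1% in Id3KO γδ, against 40.4% and 40.5% in WT γδ. The share of Tcrg-C4 was thus 19.3 percentage points higher on average in Id3KO γδ, and the libraries of the groups did not overlap for any of the 3. With 2 libraries against 2, an exact two-sided permutation test cannot go below p = 0.333, which is the value found for each.

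The variable segments were divided in the same direction. Tcrg-V1 made up 67.6% and 79.6% of the FPKM of the 2 γ variable members in Id3KO γδ, against 52.5% and 33.8% in WT γδ, with Tcrg-V4 as the remainder (exact permutation p = 0.333). With Trgv2 added to the sum, Tcrg-V1 made up 44.4% and 46.4% in Id3KO γδ, against 31.9% and 19.2% in WT γδ. Trgv2 made up 34.3% and 41.7% in Id3KO γδ, against 39.3% and 43.1% in WT γδ, and these overlapped. The ratio of Tcrg-V1 to Tcrg-C4 in FPKM was 0.981 and 0.975 in Id3KO γδ, against 0.785 and 0.697 in WT γδ. Since Tcrg-V1 and Trgv2 can share reads, their split is less certain than that between Tcrg-V1 and Tcrg-V4.

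**Figure D3:**
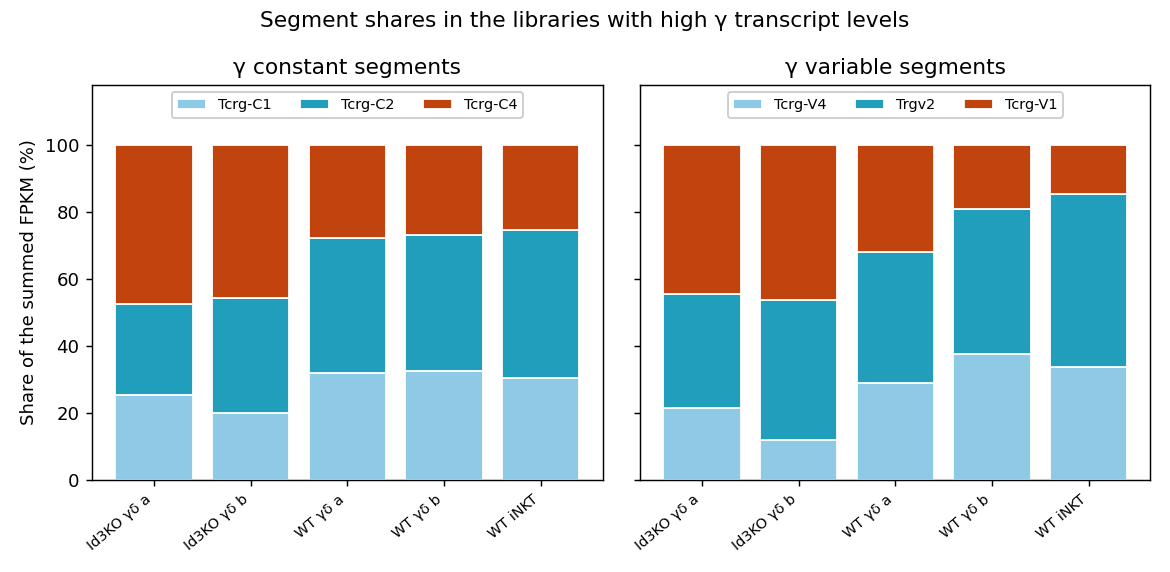
Shares of the γ constant segments (left) and of the γ variable segments with Trgv2 (right) in the summed FPKM of each kind, in percent, for each Id3KO γδ, WT γδ and WT iNKT library. Each bar is 1 library. Tcrg-C4 takes 45.8% to 47.4% in Id3KO γδ and 27.0% to 27.7% in WT γδ, and the WT iNKT library, at 25.5%, lies near WT γδ.

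The other receptor rows showed which variable segments were present when the δ members were low. The δ constant segment Trdc and the δ variable segment Trdv4 had no row, so sums of δ rows leave them out. Of 29 other γ, δ and δ-capable segments listed, 14 had a row, and in Id3KO γδ 8 were lower and 2 higher than in WT γδ, with a median log2 change of -2.29. Both that rose belong to the Trav15/dv6 family, of whose 6 rows 2 were called higher, 3 lower and 1 not called. Trav15d-1-dv6d-1 was at 573.7 and 619.5 FPKM in Id3KO γδ, against 56.0 and 87.1 FPKM in WT γδ, a log2 change of 3.08 (SE 0.31, limma adjusted p = 0.0014). Trav15n-1 was at 401.0 and 407.1 FPKM in Id3KO γδ, against 36.5 and 45.6 FPKM in WT γδ, a log2 change of 3.28 (SE 0.33, limma adjusted p = 0.0014). For both, each mutant library lay far above each WT library.

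Their close relative Trav15-1-dv6-1 was not called, at 104.7 and 20.8 FPKM in Id3KO γδ, against 22.7 and 66.6 FPKM in WT γδ. It is 95.4% identical to Trav15d-1-dv6d-1, and 15 of its 300 windows of 50 bases occur there unchanged, so the rows can share some reads. The starts of the 2 coding sequences, with differing or unmatched bases in capitals, are given because the test called 1 copy and not the other:
Trav15d-1-dv6d-1: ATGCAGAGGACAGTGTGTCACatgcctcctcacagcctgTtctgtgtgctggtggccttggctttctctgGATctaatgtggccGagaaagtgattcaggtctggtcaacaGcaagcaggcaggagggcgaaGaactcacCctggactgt
Trav15-1-dv6-1: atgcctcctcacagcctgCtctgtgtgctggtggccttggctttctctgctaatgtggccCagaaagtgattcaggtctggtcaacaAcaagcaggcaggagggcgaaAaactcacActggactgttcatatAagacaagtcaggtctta

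Among rows that fell, Trdv2-1, the near copy of Trdv2-2, was listed at 0 and was at 2.46 FPKM in Id3KO γδ, against 59.7 and 88.4 FPKM in WT γδ. Trav13-4-dv7 was at 5.68 FPKM and listed at 0 in Id3KO γδ, against 81.1 and 90.3 FPKM in WT γδ. Trav21-dv12 was at 1.31 and 1.04 FPKM in Id3KO γδ, against 41.7 and 60.8 FPKM in WT γδ. Trav15n-2 was at 1.55 and 1.19 FPKM in Id3KO γδ, against 42.0 and 61.7 FPKM in WT γδ. These 4 had the lowest log2 changes of the list, between -5.31 and -4.46. The other family rows called lower were Trav15d-2-dv6d-2 (log2 change -3.44, limma adjusted p = 0.014) and Trav15-2-dv6-2 (log2 change -3.28, limma adjusted p = 0.020). Trav15-2-dv6-2 and Trav15d-2-dv6d-2 were 98.3% identical, with 98 of 320 windows of the first shared exactly. Trav15d-2-dv6d-2 and Trav15n-2 were both at 1.19 FPKM in Id3KO γδ library b, and the Trav15n rows were not compared by sequence. Family rows can therefore share reads and are not separate counts. Counting the 3 members, 11 of 16 δ variable and Trav15 family rows fell. The sum over those 16 rows was nevertheless 1173 and 1087 FPKM in Id3KO γδ, against 844.3 and 1293 FPKM in WT γδ, so the groups overlapped. Trav15d-1-dv6d-1 and Trav15n-1 held 83.1% and 94.5% of that sum in Id3KO γδ, against 10.96% and 10.26% in WT γδ.

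**Figure D4:**
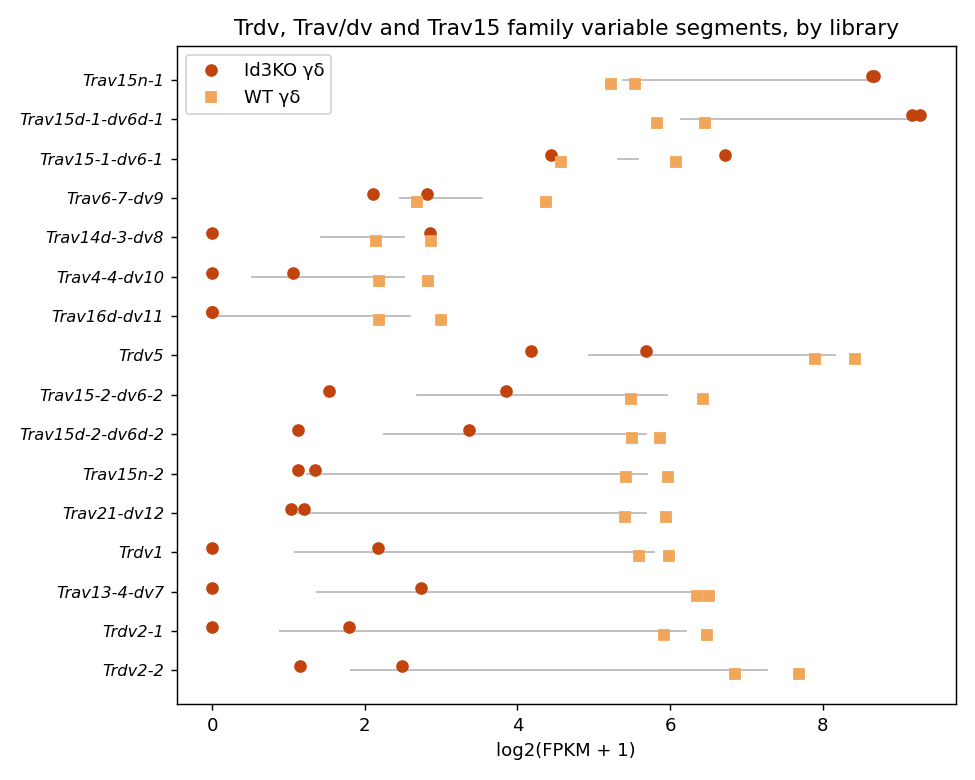
Levels of 16 Trdv, Trav/dv and Trav15 family variable segments in Id3KO γδ (circles) and WT γδ (squares), on the log2(FPKM + 1) axis, each symbol 1 library and each line joining group means. Trav15n-1 and Trav15d-1-dv6d-1 were called higher in Id3KO γδ and lie to its right, and 11 rows including Trdv1, Trdv2-2 and Trdv5 were called lower.

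Other genes moved in the same comparison. Sox13 and Etv5, transcription factors of γδ lineage cells, fell by 4.35 (SE 0.61) and 4.30 (SE 0.51) on the log2 scale, with limma adjusted p of 0.0050 and 0.0026. Zbtb16, which encodes PLZF, the factor of innate-like T cells, rose by 3.23 (SE 0.36, limma adjusted p = 0.0022). Of 14 measured γδ lineage factors 9 were lower and 3 higher. Of the 5 CD3 and pre-TCR genes, Cd247, the ζ chain, fell by 1.99 and Ptcra, the pre-TCR α chain, by 1.06, with 0 called higher, and Cd3e was at 302.1 and 326.2 FPKM in Id3KO γδ, against 278.9 and 283.2 FPKM in WT γδ.

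Il7r, the receptor of the cytokine that keeps the γ locus open in early thymocytes, rose by 1.05 (SE 0.28, limma adjusted p = 0.044) in Id3KO γδ. Of the 8 measured genes of the IL-7 and STAT5 pathway, 1 was higher and 2 lower. Among 13 recombination genes 1 was higher and 4 were lower. Rag1, which cuts the segments for joining, was at 29.2 and 6.36 FPKM in Id3KO γδ, against 84.9 and 111.8 FPKM in WT γδ. The αβ constant segments Trac, Trbc1 and Trbc2 summed to 459.2 and 472.3 FPKM in Id3KO γδ, against 821.1 and 1134 FPKM in WT γδ, and 1 of the 3, Trbc2, was called lower.

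Markers of other cells moved beside the δ members. The 9 DP markers, all measured, summed to 140.2 and 174.9 FPKM in Id3KO γδ, against 382.0 and 467.9 FPKM in WT γδ, and 5 were called lower and 0 higher. In WT DP the same sum was 3259 and 3224 FPKM. The 7 measured of 9 myeloid markers summed to 28.5 and 50.4 FPKM in Id3KO γδ, against 221.5 and 259.2 FPKM in WT γδ, and 5 were called lower and 0 higher. Cd79b, the 1 measured of 7 B cell markers, was at 2.55 and 2.50 FPKM in Id3KO γδ, against 9.21 and 9.81 FPKM in WT γδ (log2 change -1.58, limma adjusted p = 0.0018). Gata3, the 1 measured of 7 NK cell and ILC markers, which T cells also express, was at 61.6 and 42.2 FPKM in Id3KO γδ, against 151.4 and 127.5 FPKM in WT γδ (log2 change -1.43, limma adjusted p = 0.022). The 5 measured of 7 iNKT markers, Zbtb16 among them, summed to 556.9 and 389.5 FPKM in Id3KO γδ, against 172.5 and 140.5 FPKM in WT γδ. The part of these cells in the fall of the δ members was not tested, and fewer cells using a segment cannot be told apart from less RNA per cell.

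In the libraries labelled L-DKO iNKT, in which Id2 was near 0 but Id3 was not called lower, γ transcripts fell. Of the 8 members 4 were called lower and 0 higher in L-DKO iNKT, where 3.88% of all rows were called lower and 2.18% higher. The members' median change was -3.95 on the log2 scale, beside -0.07 over all rows. The contrast rests on 1 WT iNKT library, and the other groups supply the spread assumed for it.

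Tcrg-C1 was listed at 0 and was at 2.58 FPKM in L-DKO iNKT, against 149.8 FPKM in WT iNKT. Tcrg-C2 was at 0.363 and 2.84 FPKM in L-DKO iNKT, against 216.8 FPKM in WT iNKT. Tcrg-V4 was at 1.16 and 1.62 FPKM in L-DKO iNKT, against 165.9 FPKM in WT iNKT. These 3, a V segment with its own cluster's C segment and the C segment most like it, were low in the mutant libraries, at the 0.42 to 3.85 percentile of all rows in library a and the 4.99 to 11.5 percentile in library b. On the log2 scale the change was -6.32 (SE 0.70) for Tcrg-C1, -6.57 (SE 0.75) for Tcrg-C2 and -6.13 (SE 0.78) for Tcrg-V4, with limma adjusted p of 0.0034, 0.0037 and 0.0054. Leaving out each of the 10 other libraries in turn kept these calls, with limma adjusted p up to 0.0207, while the WT iNKT library cannot be left out. Fitted on the iNKT libraries alone, which leaves 1 residual degree of freedom, no member was called (limma adjusted p of 0.127 to 0.251 for the 4), and on the log2(FPKM + 0.1) scale Tcrg-C2 and Tcrg-C4 were not called (0.055 and 0.222).

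Tcrg-C4 kept the highest level, 6.09 and 18.5 FPKM in L-DKO iNKT, against 125.4 FPKM in WT iNKT, and fell by 3.42 (SE 0.68, limma adjusted p = 0.028). With L-DKO iNKT library a left out the limma adjusted p was 0.070, and with either WT γδ library left out it was 0.052. Tcrg-V1 was listed at 0 and was at 9.76 FPKM in L-DKO iNKT, against 72.1 FPKM in WT iNKT. Its log2 difference of -4.48 (SE 1.09) missed the threshold (limma adjusted p = 0.055). The value rests on which mutant library is kept: it was -2.77 without library a (limma adjusted p = 0.0057) and -6.19 without library b (0.00089), each fit leaving out the spread between them. Tcrg-C4 made up 94.4% and 77.4% of the γ constant FPKM in L-DKO iNKT, against 25.5% in WT iNKT, at sums of 6.45 and 23.96 FPKM against 491.9 FPKM. Library b held most of what remained of Tcrg-V1 and Tcrg-C4.

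The δ members were low in both iNKT groups. Trdv1 and Trdv2-2 were listed at 0 in both L-DKO iNKT libraries, against 2.65 and 3.15 FPKM in WT iNKT, and Trdv5 was listed at 0 in both, against 0.271 FPKM. No δ member was called (limma adjusted p of 0.200, 0.064 and 0.836 for Trdv1, Trdv2-2 and Trdv5). With either Id3KO γδ library left out of the fit, Trdv1 (0.0061) and Trdv2-2 (0.0162) were called lower, and on the log2(FPKM + 0.1) scale Trdv2-2 was called, at -5.02 (0.0114). Of the 14 other receptor rows 2 were lower and 1 higher in L-DKO iNKT, with a median log2 change of -1.12. Trgv2, the partner of Tcrg-C2, was at 0.854 and 5.43 FPKM in L-DKO iNKT, against 254.6 FPKM in WT iNKT (log2 change -6.21, SE 0.83, limma adjusted p = 0.0066). Trav15d-1-dv6d-1, which can also serve the α chain, was at 13.1 and 21.5 FPKM in L-DKO iNKT, against 3.02 FPKM in WT iNKT (log2 change 2.14, SE 0.38, limma adjusted p = 0.018).

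The constant segments of the αβ receptor were not called. Trac, Trbc1 and Trbc2 summed to 1375 and 1329 FPKM in L-DKO iNKT, against 1637 FPKM in WT iNKT (limma adjusted p of 0.242 for Trac, 0.923 for Trbc1 and 0.784 for Trbc2). The γ constant sum was 0.469% and 1.80% of that αβ constant sum in L-DKO iNKT, against 30.0% in WT iNKT. Il7r was at 22.3 and 11.5 FPKM in L-DKO iNKT, against 319.2 FPKM in WT iNKT, a log2 change of -4.23 (SE 0.34, limma adjusted p = 0.0013). Stat5a and Stat5b, the factors it acts through, were higher by 1.41 and 1.59. Runx3 fell by 5.12 (SE 0.48, limma adjusted p = 0.0020). Etv5 rose by 3.16 and Sox4 by 2.65, and of the 14 measured γδ lineage factors 5 were higher and 1 lower.

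Of the 3 measured of 6 γδ markers, Sox13 and Etv5 were low in the WT iNKT library and Cd3e, which αβ T cells also express, was not. Sox13 was at 6.05 FPKM and Etv5 at 2.54 FPKM in WT iNKT, against 284.3 and 202.1 FPKM for Sox13 and 124.7 and 122.7 FPKM for Etv5 in WT γδ. In Id3KO γδ, Sox13 was at 23.7 and 4.66 FPKM and Etv5 at 8.51 and 3.21 FPKM. Both genes were called lower in Id3KO γδ than in WT γδ. Cd3e was at 388.0 FPKM in WT iNKT, against 278.9 and 283.2 FPKM in WT γδ. Sox13 was called higher in WT iNKT than in WT DP, at 0.562 and 0.0614 FPKM (log2 difference 2.45, limma adjusted p = 0.046). The 7 measured myeloid markers summed to 21.3 and 36.3 FPKM in L-DKO iNKT, against 151.0 FPKM in WT iNKT, with 5 lower and 1 higher. The 5 measured iNKT markers summed to 165.3 and 216.2 FPKM in L-DKO iNKT, against 919.1 FPKM in WT iNKT. The part of these markers in the fall of the γ members was not tested.

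The effects in the 2 lineages differed for several members. The effect in iNKT cells minus that in γδ cells was called lower for 4 members and higher for 1, where 3.35% of all rows were called lower and 3.25% higher. The contrasts share no libraries. Both γδ groups were sorted for the γδ receptor, which limits how far γ transcripts could fall there. The iNKT gate sets no such limit. Tcrg-C2 differed by -6.15 (SE 0.96), Tcrg-C1 by -5.78 (SE 0.90), Tcrg-V4 by -5.36 (SE 1.01) and Tcrg-C4 by -4.17 (SE 0.88), with limma adjusted p of 0.013, 0.013, 0.023 and 0.033. The call of Tcrg-C4 was lost after quantile normalization (limma adjusted p = 0.053) and with only the libraries of the comparison fitted (0.065). Its difference ran from -4.90 to -3.44 as single libraries were left out. Trdv2-2 differed by 3.40 (SE 0.67, limma adjusted p = 0.026) on the log2(FPKM + 1) scale, at 0 in both L-DKO iNKT libraries against 3.15 FPKM in WT iNKT. That value depends on the pseudocount: on the log2(FPKM + 0.1) scale the change of Trdv2-2 in iNKT cells was -5.02, and the difference between the effects was 0.92 (limma adjusted p = 0.582). Tcrg-V1 differed by -5.63 (SE 1.40, limma adjusted p = 0.057). It was -3.91 without L-DKO iNKT library a (limma adjusted p = 0.0048) and -7.34 without library b (0.0013), so that 1 library moved the value widely. The number called was 1 without WT γδ library a, 3 without WT γδ library b or L-DKO iNKT library a, and 0 on the log2(FPKM + 0.1) scale.

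In DP cells, 0 of the 8 members were called by limma in L-DKO against WT, and 0 had an unadjusted p under 0.05, where 0.118% of all rows were called higher and 0.0592% lower. Trdv1 was at 19.4 and 18.4 FPKM in L-DKO DP, against 25.5 and 28.5 FPKM in WT DP. Trdv2-2 was at 13.6 and 15.2 FPKM in L-DKO DP, against 16.3 and 15.5 FPKM in WT DP. Trdv5 was at 19.1 and 14.7 FPKM in L-DKO DP, against 7.20 and 13.5 FPKM in WT DP. The log2 differences were -0.49 for Trdv1, -0.14 for Trdv2-2 and 0.70 for Trdv5, and none was called. The 95% intervals of the log2 differences were -1.82 to 0.84 for Trdv1, -1.12 to 0.84 for Trdv2-2 and -0.42 to 1.81 for Trdv5. These intervals do not bound the changes that could go uncalled. Ptcra was higher by 1.34 (SE 0.22) in L-DKO DP and was not called (limma adjusted p = 0.083).

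The γ members lay between 0 and 5.06 FPKM in all 4 DP libraries. Tcrg-V1 was at 0.777 and 1.07 FPKM in L-DKO DP, against a value listed at 0 in both WT DP libraries. Tcrg-V4 was at 0.500 and 0.707 FPKM in L-DKO DP, against 5.06 and 0.736 FPKM in WT DP. Tcrg-C1, Tcrg-C2 and Tcrg-C4 lay between 0.194 and 1.93 FPKM in L-DKO DP, against 0 to 2.26 FPKM in WT DP. At such levels shares of segments are not given. Of the 14 other receptor rows 0 were called by limma, with a median log2 change of -0.19 beside 0.04 over all rows.

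Among WT cells, the γ members set γδ and iNKT apart from DP cells, and the δ members set γδ apart from iNKT cells. In WT γδ against WT DP, 7 members were called higher and 0 lower, where 14.6% of all rows were called higher and 6.03% lower. The log2 differences ran from 3.20 for Trdv2-2 to 7.90 for Tcrg-C2. Trdv1 was the exception, at 47.1 and 62.5 FPKM in WT γδ, against 25.5 and 28.5 FPKM in WT DP, a difference of 0.98 (SE 0.58, limma adjusted p = 0.262). That difference passed when either Id3KO γδ library was left out (0.0127). Tcrg-V1, listed at 0 in both WT DP libraries, is given no fold.

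In WT γδ against WT iNKT, the 3 δ members were called higher and 0 members lower, where 1.56% of all rows were called higher and 1.22% lower. Trdv5 differed by 7.81 (SE 0.59), Trdv2-2 by 5.22 (SE 0.52) and Trdv1 by 3.92 (SE 0.71), with limma adjusted p of 0.0030, 0.0038 and 0.032. The call of Trdv1 did not hold once WT γδ library a (limma adjusted p = 0.116), WT γδ library b (0.076), either L-DKO DP library (0.071) or either WT DP library (0.063) was dropped, nor on the log2(FPKM + 0.1) scale (0.260). The γ members differed by 0.64 to 1.42 on the log2 scale and were not called, with 95% intervals between -1.16 and 3.93. Tcrg-V1, the one with the difference of 1.42, passed when only the WT γδ and WT iNKT libraries were fitted (limma adjusted p = 0.0116) or either L-DKO iNKT library was left out (0.0337). The WT iNKT library also had γ constant shares near those of WT γδ, at 30.4% Tcrg-C1, 44.1% Tcrg-C2 and 25.5% Tcrg-C4.

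In WT iNKT against WT DP, the 5 γ members were called higher and the 3 δ members lower, where 16.3% of all rows were called higher and 8.73% lower. The γ differences ran from 5.69 for Tcrg-V4 to 7.06 for Tcrg-C2. Trdv5, Trdv1 and Trdv2-2 differed by -3.10 (SE 0.59), -2.94 (SE 0.71) and -2.02 (SE 0.52), with limma adjusted p of 0.0075, 0.020 and 0.025. Without WT DP library a or b the calls of Trdv1 (limma adjusted p = 0.057 and 0.068) and Trdv2-2 (0.077 and 0.073) were lost, and on the log2(FPKM + 0.1) scale that of Trdv1 was lost (0.206). Fitted on these 3 libraries alone, Tcrg-V4 was not called (limma adjusted p = 0.051). The 3 comparisons among WT cells share libraries and are not independent of each other.

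Across all 11 libraries, the γ members varied together and apart from the δ members. Pearson's r on log2(FPKM + 1) was 0.911 to 0.994 over the 10 pairs of γ members, 0.714 to 0.944 over the 3 pairs of δ members and -0.22 to 0.55 over the 15 pairs of a γ with a δ member. The libraries fall into a few cell types, so these values describe the groups more than the libraries within them. Outside the receptor genes, the rows most like Tcrg-C1 were Rnf144a (r = 0.968), Samhd1 (0.965) and Atp10d (0.961). Those most like Tcrg-C2 were Atp10d (0.960), Fam69a (0.955) and Samhd1 (0.955). For Tcrg-V4 they were Samhd1 (0.977), Fam69a (0.972) and Atp10d (0.954).

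Tcrg-C4 and Tcrg-V1 had other neighbours. Slc14a1 (r = 0.978), Gsto1 (0.973) and Elp2 (0.967) were most like Tcrg-C4, and Snx4 (0.969), Qdpr (0.966) and Gsto1 (0.960) most like Tcrg-V1. Slc35b4 was most like both Trdv1 (0.970) and Trdv2-2 (0.955), followed by Spast (0.967) and Lrp5 (0.963) for Trdv1 and by Igf1r (0.949) and Hp1bp3 (0.941) for Trdv2-2. Trdv5 had weaker neighbours, among them Cuedc2 (0.890) and Haus4 (0.879). The search covered rows with at least 10 FPKM in 1 library, over 11 libraries.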

How the data were processed

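RNA was sequenced from 11 libraries in 6 groups, each a pool of sorted thymocytes. The authors trimmed reads with Trimmomatic 0.32, aligned them with TopHat2 2.0.9 and estimated FPKM with Cufflinks 2.2.0 on mm10 (GRCm38), per the submitters' processing notes. Annotation and strand use: not given in the sources used here. The deposited values are log2(FPKM + 1), which run from 0 to 16.65. Deposited columns of the authors' means and fold changes were set aside. Of 12 labelled samples, 1 WT iNKT library, removed by the authors for low quality, is not analysed here. FPKM depends on which other RNAs fill a library, and an exact 0 may be a failed estimate.

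The values were tested with limma 3.58.1 in R 4.3.3, in 1 model of 6 group means with 5 residual degrees of freedom, two-sided, and p values were adjusted by Benjamini-Hochberg over all 11815 rows. The script was tested on simulated data. Libraries are separate pools, so p values measure the spread between pools. Members and gene lists were chosen with earlier results of these data known. Members were described in every library, and up to 4 members of a list were named by size of change; Rag1, Cd3e, Sox4, Ptcra, Trav15-1-dv6-1, Trav15d-1-dv6d-1 and Trav15n-1, where outside this rule, were chosen after their values were seen. Of the genes these rules take, 2 are not reported here. Likeness used Pearson's r among rows with at least 10 FPKM in 1 library. Coding sequences came from GENCODE transcripts, matched by older symbols and compared with Biopython 1.88, and positions from RefSeq (GRCm38.p6).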

Additional observations from a re-analysis of the deposited data

Results flagged for a closer look

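The effect of Id loss in iNKT cells differed from that in γδ cells for 5 members, by limma's test of the difference between the effects. The difference, iNKT minus γδ on the log2(FPKM + 1) scale, was -6.15 for Tcrg-C2, -5.78 for Tcrg-C1, -5.36 for Tcrg-V4, -4.17 for Tcrg-C4 and 3.40 for Trdv2-2. That of Tcrg-C4 was not called after quantile normalization. The γδ sort limits how far γ transcripts could fall in γδ cells, and the iNKT sort does not. The value of Trdv2-2 depends on the pseudocount, since both L-DKO iNKT libraries are listed at 0: on the log2(FPKM + 0.1) scale it was 0.92 (limma adjusted p = 0.582), and none of the other 4 members was called on that scale either. The iNKT effect rests on 1 WT library, and the mutant genotypes differ between the lineages by their labels (Id2 f/f Id3 f/f LckCre+ for iNKT cells, in which only Id2 was called lower, and Id3KO for γδ cells), so genotype and lineage cannot be told apart.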

How the results depend on the processing

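Of 896 refitted member values, 824 kept their direction and their side of the threshold, 45 lost the call, 24 gained it and 3 reversed. The reversals were uncalled differences: Tcrg-C4 in L-DKO DP against WT DP (-0.014 to 1.28, negative without L-DKO DP library a) and Tcrg-C2 there (-0.19 to 1.22, negative without WT DP library b), and Tcrg-V4 in WT γδ against WT iNKT (-0.12 to 1.41, negative without WT γδ library b). Fitted with only the libraries of the comparison, 0 members were called in L-DKO iNKT against WT iNKT, with 1 residual degree of freedom, and 3 in the difference between the effects, where log2(FPKM + 0.1) left 0. With each library but the lone WT iNKT one left out in turn, the number called ranged from 3 to 6 in L-DKO iNKT against WT iNKT, from 3 to 4 in Id3KO γδ against WT γδ and from 1 to 6 in the difference between the effects. A lone library left in a group is assumed to vary like the other groups. After quantile normalization the mean share of Tcrg-C4 was 44.5% in Id3KO γδ and 26.0% in WT γδ, and that of Tcrg-C2 was 42.2% in WT γδ. The number of all rows called was 1789 in Id3KO γδ against WT γδ (555 to 2150 over the alternatives), 717 in L-DKO iNKT against WT iNKT (2 to 853), 21 in L-DKO DP against WT DP (3 to 33), 2438 in WT γδ against WT DP (1131 to 2570), 328 in WT γδ against WT iNKT (70 to 976), 2951 in WT iNKT against WT DP (1647 to 3278) and 780 in the difference between the effects (203 to 945). Scaling libraries to the same total without small RNA, receptor and predicted rows moved the median of all rows to -0.25, against -0.08, in Id3KO γδ against WT γδ, to 0.10, against -0.07, in L-DKO iNKT against WT iNKT and to 0.33, against -0.02, in the difference between the effects. The share of called rows that were higher then became 28.9%, against 44.9%, in Id3KO γδ against WT γδ, 50.6%, against 36.0%, in L-DKO iNKT against WT iNKT and 74.9%, against 49.2%, in the difference. Neither that scaling nor quantile normalization turned the direction of a member. No paired analysis was possible because the columns carry no replicate numbers. Depth is unknown, so no counting error is given.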
